A study of Homo sapiens with 6 samples.

Results

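The sestrin, TSC, Rag and GATOR genes carry nutrient and stress signals to mTORC1, and 10 of them (SESN1, SESN2, SESN3, TSC1, TSC2, RHEB, RRAGC, RRAGD, FLCN and DEPDC5) were examined here by gene symbol among the 17448 genes listed. They were measured by RNA-seq of poly(A)-selected RNA from HCC2814, a human lung squamous cell carcinoma (LUSC) line of epithelial cells. Cells kept in DMEM (10% serum, penicillin and streptomycin at 0.1%) received guide RNA that was either non-targeting (WT, 3 samples) or directed against MLST8 (MLST8-KO, 3 samples) for 48 to 72 hours, followed by antibiotic selection. The CRISPR vector and the selection were thus shared by both groups. MLST8 is a subunit of both mTOR complexes, and the study targeted it to disrupt mTORC2. The paper reports for this line that MLST8 loss broke the binding of mTOR to RICTOR (mTORC2) but not to RAPTOR (mTORC1). It also reports less AKT phosphorylation at an mTORC2 site, with that of the mTORC1 substrate S6K1 unchanged. Values for single samples are given below in the order of replicates 1, 2 and 3. Guides were delivered by lentivirus. The study made HCC2814 lines with several numbered guides of each kind, and which guide each library carried is not given in the sources used here, so guide and replicate cannot be told apart. The methods describe no isolation of single clones for this line, so an MLST8-KO sample can be a mixture of edited and unedited cells. In such bulk samples, a lower share of cells expressing a gene and less RNA per cell cannot be told apart.

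mTORC1 is a kinase complex that drives protein synthesis and growth when amino acids, energy and growth factors are sufficient. Amino acids act through the Rag GTPases, heterodimers of RagA or RagB with RagC or RagD, which carry mTORC1 to the lysosome. There the small GTPase Rheb switches the kinase on. Each step has brakes: the TSC complex inactivates Rheb, GATOR1 inactivates RagA and RagB, and the sestrins hold back GATOR2, the inhibitor of GATOR1. The sestrins are also stress genes, induced by FOXO factors or ATF4 in many cell types.

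All 10 genes passed the filter on low counts and were tested among 12951 genes. SESN3 and SESN2 were higher in MLST8-KO cells, so 2 of the 10 genes changed, against 32.0% of all genes tested (edgeR's quasi-likelihood test, threshold 0.05 after adjustment over all genes by the method of Benjamini and Hochberg). By direction, 16.3% of all genes were higher and 15.7% lower. The share of changed genes among these regulators therefore did not exceed the background. No regulator was lower by edgeR, DESeq2 or limma, with 0 past the adjusted threshold and 1, FLCN, at an unadjusted p under 0.05 by edgeR. The median log2 fold change of the 10 genes was 0.02, and that of all genes tested was 0.0045.

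**Figure D1:**
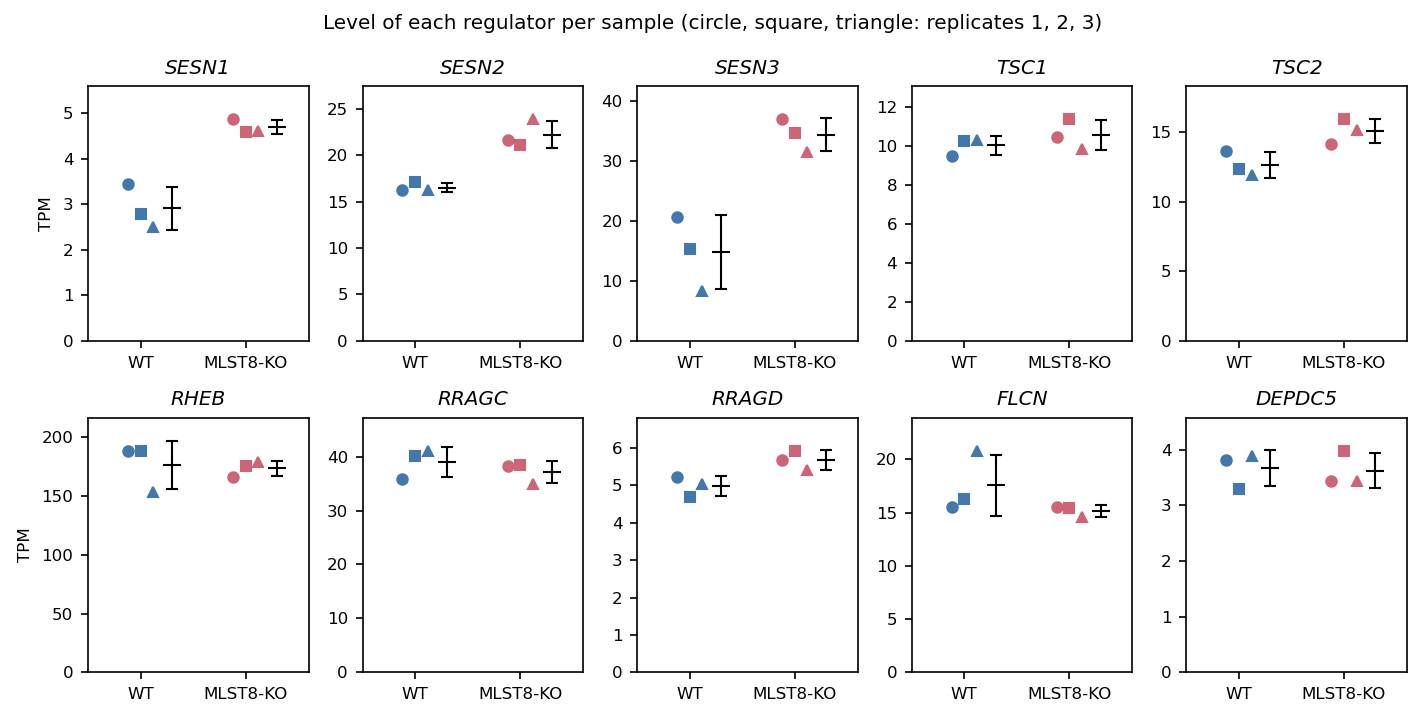
Level of each regulator in TPM (vertical axis, from 0, a separate scale for each gene) in the 3 WT and 3 MLST8-KO samples. Circles, squares and triangles are replicates 1, 2 and 3, and the black bar is the mean with its SD. In SESN1, SESN2, SESN3, TSC2 and RRAGD every MLST8-KO sample sits above every WT sample, whereas the groups overlap for TSC1, RHEB, RRAGC, FLCN and DEPDC5. The share of all genes with such a separation in TPM was not computed. In counts scaled to library size, TSC2 and RRAGD overlapped, and RRAGC and FLCN were lower in every MLST8-KO sample. By those counts 49.1% of all genes tested had groups without overlap, 24.8% with MLST8-KO above and 24.2% below.

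The libraries were of similar depth, with 14381673 to 15744154 estimated counts per sample. MLST8, the targeted gene, was at 63.5, 61.4 and 62.9 TPM in the WT samples and at 30.0, 47.3 and 28.0 TPM in the MLST8-KO samples. Transcript was therefore lower but still present in every MLST8-KO sample (log2 fold change -0.96, standard error 0.15, adjusted p = 0.00339 by edgeR). All 8 squamous and epithelial markers (among them TP63 and KRT5) exceeded 1 TPM in every sample. Their summed level was 10062 to 15251 TPM in WT and 18943 to 21012 TPM in MLST8-KO samples, so it moved with the groups. The leukocyte marker PTPRC had 0 or 1 counts, and CD3E was not analysed here. The endothelial marker PECAM1 was at 0.39 to 0.68 TPM in WT and 0.20 to 0.30 TPM in MLST8-KO samples. The sum of both fibroblast markers was 9.43 to 11.9 TPM over all samples. The sum of 3 alveolar or adenocarcinoma markers was 1.43 to 3.39 TPM in WT and 7.62 to 9.63 TPM in MLST8-KO samples. MLST8-KO replicate 1 stood apart in the summed level of 6 liver genes, which was 232 TPM there against 0.39 to 5.95 TPM in the other libraries. How this sum divides among the 6 genes was not examined.

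Because 3 sestrin genes lay in the same direction, the sequences just before their starts are shown, to let a reader see which response elements these windows hold. Each window is the 250 bases before a RefSeq gene start (GRCh38.p14, 5′ to 3′ on the gene's strand), and 35116 such windows were searched on both strands. The motifs were CACGTG, the E-box of TFEB and its relatives (present in 6.34% of all windows), GTAAACA, the FOXO core (2.98%), TGATGNAA, the C/EBP-ATF element (3.14%), and TGACNNNGC, the core of the antioxidant response element (10.9%). Matches are in capitals. SESN1 has 3 listed starts, and the window with a match is shown.
SESN1, chr6:109009553-109009802, minus strand: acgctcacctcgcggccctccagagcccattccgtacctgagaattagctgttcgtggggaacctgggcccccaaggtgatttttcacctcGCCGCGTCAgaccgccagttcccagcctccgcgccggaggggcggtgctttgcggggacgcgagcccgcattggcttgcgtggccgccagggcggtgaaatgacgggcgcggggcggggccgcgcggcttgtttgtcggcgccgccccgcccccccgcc
SESN2, chr1:28259268-28259517, plus strand: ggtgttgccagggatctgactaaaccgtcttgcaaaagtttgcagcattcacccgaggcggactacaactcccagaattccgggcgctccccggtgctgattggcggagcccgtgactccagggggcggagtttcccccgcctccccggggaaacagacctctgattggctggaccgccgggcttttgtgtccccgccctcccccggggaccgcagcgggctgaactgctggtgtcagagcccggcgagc
SESN3, chr11:95232476-95232725, minus strand: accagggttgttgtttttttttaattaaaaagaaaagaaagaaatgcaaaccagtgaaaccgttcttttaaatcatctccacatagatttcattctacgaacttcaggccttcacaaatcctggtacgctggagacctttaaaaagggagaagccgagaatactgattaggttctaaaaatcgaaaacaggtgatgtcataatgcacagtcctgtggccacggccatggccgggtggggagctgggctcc
Of the sestrin windows, the one of SESN1 shown above held 1 TGACNNNGC match on the opposite strand, starting 159 bases before the gene start, and those of SESN2 and SESN3 held none of the 4 motifs. The windows also differed in base composition, with 71.6%, 65.6% and 42.8% G and C in the SESN1, SESN2 and SESN3 windows shown. RRAGD had no window and was not searched. Among the other regulators with a window, TSC2 and RRAGC held several of these motifs, which overlap one another. A further TSC2 window held none of them. The stretches around the matches are shown because both genes have an E-box.
TSC2, chr16:2047852-2047894, plus strand: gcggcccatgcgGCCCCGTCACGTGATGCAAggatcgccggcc
RRAGC, chr1:38859860-38859896, minus strand: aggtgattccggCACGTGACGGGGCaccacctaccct
In TSC2 the capitals hold TGACNNNGC on the opposite strand, CACGTG and TGATGNAA, and in RRAGC they hold CACGTG and TGACNNNGC. A match is only a description of these letters, and neither gene changed past the threshold.

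SESN3 showed the clearest difference. It encodes a stress-inducible sestrin that restrains mTORC1 through GATOR2, and lies on chromosome 11 from 95165513 to 95232541 (Entrez gene 143686; gene positions here and below are from GENCODE v29 on GRCh38). It was at 20.7, 15.4 and 8.35 TPM in the WT samples, and at 36.9, 34.6 and 31.4 TPM in the MLST8-KO samples. Every MLST8-KO sample was above every WT sample, and the WT samples were spread far more widely than the MLST8-KO samples. Counts ranged from 620 to 1618 in WT and from 2460 to 2747 in MLST8-KO samples. SESN3 was 2.16-fold higher in MLST8-KO cells (95% interval 1.5 to 3.09; log2 fold change 1.11, standard error 0.23, adjusted p = 0.00810 by edgeR). Its log2 fold change exceeded that of 97.9% of the genes tested. With 1 sample left out, the log2 fold change lay between 0.83 (without WT replicate 3) and 1.42 (without WT replicate 1), and the adjusted p of edgeR was at most 0.0363. WT replicate 3, the sample with the least SESN3, also had the lowest summed squamous markers (10062 TPM). The part of this difference between samples in the SESN3 value was not tested.

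SESN2, a sestrin that binds leucine and is induced by ATF4, lies on chromosome 1 from 28259527 to 28282491 (Entrez gene 83667). It was at 16.2, 17.1 and 16.2 TPM in the WT samples and at 21.7, 21.1 and 23.9 TPM in the MLST8-KO samples. The WT samples were nearly level, and all MLST8-KO samples lay above them. SESN2 was 1.26-fold higher in MLST8-KO cells (95% interval 1.09 to 1.46; log2 fold change 0.33, standard error 0.10, adjusted p = 0.0249 by edgeR). This call was lost without WT replicate 2, MLST8-KO replicate 1 or MLST8-KO replicate 3 (adjusted p = 0.0800, 0.0689 and 0.0809 by edgeR), and the log2 fold change stayed between 0.25 and 0.39 over the 6 fits with 1 sample left out. Without MLST8-KO replicate 1, the library with the high sum of liver genes, it was 0.35.

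SESN1, the sestrin with the lowest counts here, lies on chromosome 6 from 108986437 to 109094819 (Entrez gene 27244) and was the least abundant of the family in TPM too. Its counts were 84, 68 and 61 in the WT samples and 109, 100 and 106 in the MLST8-KO samples, corresponding to 3.44, 2.78 and 2.51 TPM and to 4.87, 4.59 and 4.62 TPM. The groups did not overlap, but the difference did not pass the threshold (log2 fold change 0.45, standard error 0.16, adjusted p = 0.0571 by edgeR). SESN1 did pass with upper quartile scaling (adjusted p = 0.0425, edgeR), with limma on log2(TPM + 1) (adjusted p = 0.0123) and without WT replicate 1 (adjusted p = 0.0266, edgeR). It passed in only 4 of 14 alternative fits, and not with DESeq2 (adjusted p = 0.151). Its call therefore depends on the scaling and on 1 sample.

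The sestrins also differed in how the family was made up. Their summed level was 34.2 ± 6.67 TPM in WT cells and nearly level among the MLST8-KO samples at 61.2 ± 1.93 TPM (SD, n = 3 per group). SESN2 made up 49.5% ± 9.88 of this sum in WT and 36.3% ± 3.06 in MLST8-KO cells. SESN3 made up 41.9% ± 10.3 and 56.0% ± 3.09, and SESN1 the remaining 8.57% ± 0.690 and 7.67% ± 0.0512 (SD, n = 3 each). The ratio of SESN3 to SESN2 in TPM was 1.27, 0.902 and 0.515 in the WT samples and 1.70, 1.64 and 1.32 in the MLST8-KO samples. Every MLST8-KO sample thus had more SESN3 than SESN2, as did WT replicate 1. These shares describe the samples and were not tested.

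**Figure D2:**
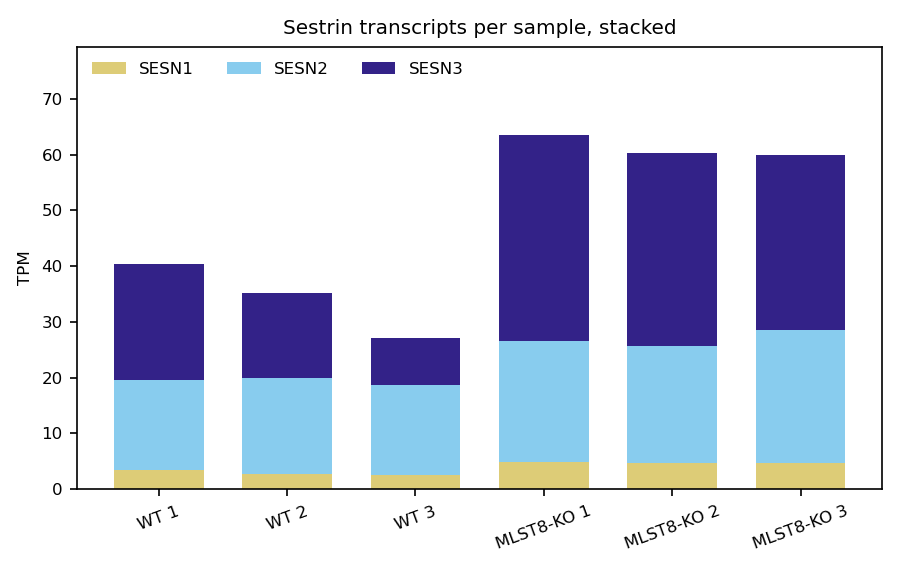
Sestrin transcripts in TPM (vertical axis, from 0) for each WT and MLST8-KO sample, stacked as SESN1, SESN2 and SESN3. The SESN2 segment is 16.2 to 17.1 TPM in WT and 21.1 to 23.9 TPM in MLST8-KO samples, while the SESN3 segment varies from 8.35 TPM in WT replicate 3 to 36.9 TPM in MLST8-KO replicate 1.

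The TSC complex and its target Rheb were next compared. TSC1 stabilizes TSC2 and lies on chromosome 9 from 132891348 to 132946874. Its level was 9.47, 10.3 and 10.3 TPM in the WT samples and 10.4, 11.4 and 9.83 TPM in the MLST8-KO samples, with overlapping groups. No difference in TSC1 was detected (log2 fold change -0.04, 95% interval -0.22 to 0.15, adjusted p = 0.750 by edgeR), and the sign turned with upper quartile scaling (0.017) and with limma on log2(TPM + 1) or log2(TPM + 0.1) (0.066 and 0.072). TSC2, which carries the GTPase-activating domain for Rheb, lies on chromosome 16 from 2047465 to 2089487. It was at 13.7, 12.3 and 11.9 TPM in the WT samples and at 14.1, 15.9 and 15.2 TPM in the MLST8-KO samples. In TPM all MLST8-KO samples were above the WT samples, but after TMM scaling of the counts the groups overlapped, and the difference did not pass the threshold (log2 fold change 0.16, 95% interval -0.04 to 0.36, adjusted p = 0.197 by edgeR). Exons of TSC2 share 778 bases with PKD1 and 402 bases with NTHL1 on the opposite strand. Whether the counting used strand is not given in the sources used here, so reads from these overlaps cannot be told apart.

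RHEB, the GTPase that activates mTORC1, was by far the most abundant of the 10 regulators. It lies on chromosome 7 from 151466012 to 151520120, and its level is uncertain, because processed pseudogenes of near-identical sequence can take a part of its reads. RHEB was at 189, 188 and 153 TPM in the WT samples and at 167, 176 and 179 TPM in the MLST8-KO samples. All MLST8-KO samples fell between WT replicate 3 and the other WT samples, and no difference was detected (log2 fold change -0.13, 95% interval -0.33 to 0.07, adjusted p = 0.281 by edgeR). The ratio of RHEB to TSC2 in TPM was 13.8, 15.3 and 12.9 in the WT samples and 11.8, 11.1 and 11.8 in the MLST8-KO samples. It was thus lower in every MLST8-KO sample than in any WT sample, as a description that was not tested. How common such a separation is among ratios of other genes was not computed. Of single genes, 49.1% of those tested had groups without overlap in counts scaled by TMM. Neither RHEB nor TSC2 passed the threshold.

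RagC and RagD are alternative partners of RagA and RagB, and RRAGD is a known target of TFEB. RRAGC lies on chromosome 1 from 38838198 to 38859823 and was at 35.9, 40.1 and 41.1 TPM in the WT samples and at 38.2, 38.4 and 34.9 TPM in the MLST8-KO samples. The groups overlapped in TPM, but in CPM, the counts scaled by TMM to a common library size, all MLST8-KO samples were below the WT samples, at 49.9 ± 1.44 against 56.6 ± 4.78 CPM (SD, n = 3 each). Over all genes, groups did not overlap in CPM for 49.1% of those tested, with 24.8% above and 24.2% below in MLST8-KO cells. The same count for the regulators was 5 of 10, with 3 above (the sestrins) and 2 below (RRAGC and FLCN), which is close to that background. The log2 fold change of RRAGC was -0.18 (95% interval -0.37 to 0.01, adjusted p = 0.131 by edgeR), and it passed only without WT replicate 1 (-0.25, adjusted p = 0.0435 by edgeR).

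RRAGD lies on chromosome 6 from 89364636 to 89412270 and was less abundant than RRAGC in every sample. Its level was 5.21, 4.69 and 5.02 TPM in the WT samples and 5.68, 5.92 and 5.40 TPM in the MLST8-KO samples. The groups were apart in TPM and overlapped in CPM, and no difference was detected (log2 fold change 0.08, 95% interval -0.17 to 0.33, adjusted p = 0.615 by edgeR). RRAGD made up 11.3% ± 1.17 of the summed RRAGC and RRAGD level in WT cells and 13.2% ± 0.260 of it after MLST8 targeting (SD, n = 3 per group). The ratio of RRAGC to RRAGD was 6.89, 8.56 and 8.18 in the WT samples and 6.73, 6.49 and 6.46 in the MLST8-KO samples. All MLST8-KO samples were below the WT samples in this ratio, but MLST8-KO replicate 1 and WT replicate 1 were close. The ratio was not tested, and no background was computed for ratios. Of single genes, 49.1% of those tested had groups without overlap in CPM.

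FLCN encodes folliculin, which with its FNIP partner activates GTP hydrolysis by RagC and RagD, and lies on chromosome 17 from 17212212 to 17237188. It was at 15.6, 16.3 and 20.8 TPM in the WT samples and at 15.6, 15.4 and 14.5 TPM in the MLST8-KO samples. Only WT replicate 3 was clearly apart. The log2 fold change was -0.35 (95% interval -0.63 to -0.07), and the adjusted p was 0.0568 by edgeR. It was -0.20 without WT replicate 3 (adjusted p = 0.170, edgeR) and -0.43 without WT replicate 1 (adjusted p = 0.0158, edgeR), so the FLCN value turns on which WT sample is kept.

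DEPDC5, a subunit of GATOR1, lies on chromosome 22 from 31753867 to 31908033. It was at 3.82, 3.30 and 3.89 TPM in the WT samples and at 3.44, 3.98 and 3.44 TPM in the MLST8-KO samples. The groups overlapped, and no difference was detected (log2 fold change -0.10, 95% interval -0.38 to 0.17, adjusted p = 0.541 by edgeR). DEPDC5 had 139 to 156 counts per sample.

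**Figure D3:**
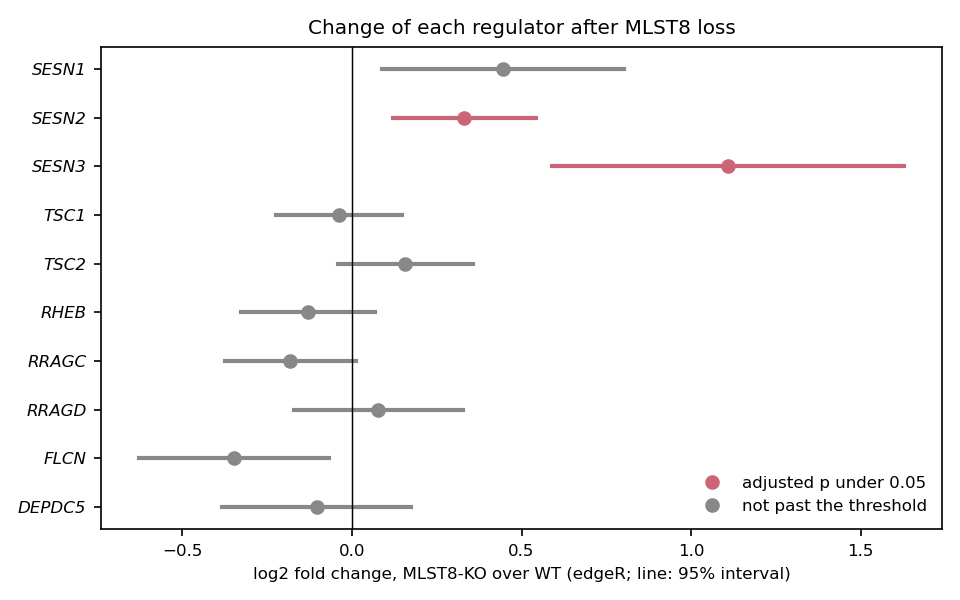
Log2 fold change of each regulator (horizontal axis, MLST8-KO over WT; points are edgeR estimates and lines their 95% intervals). SESN3 at 1.11 and SESN2 at 0.33 passed the threshold, while SESN1 at 0.45 and FLCN at -0.35 have intervals that leave out 0 but missed it after adjustment.

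Levels of different genes can be compared in TPM, which corrects for gene length. In WT cells RHEB (177 ± 20.2 TPM) was followed by RRAGC (39.0 ± 2.75 TPM). FLCN (17.6 ± 2.84 TPM), SESN2 (16.5 ± 0.494 TPM) and SESN3 (14.8 ± 6.17 TPM) came next and did not differ beyond their spread. TSC2 (12.6 ± 0.922 TPM) and TSC1 (10.0 ± 0.465 TPM) were separate from each other but within the range of SESN3. RRAGD (4.97 ± 0.263 TPM) was above DEPDC5 (3.67 ± 0.322 TPM), whose range overlapped that of SESN1 (2.91 ± 0.478 TPM; SD, n = 3 each). In MLST8-KO cells this order was altered mainly by the sestrins. SESN3 (34.3 ± 2.75 TPM) overlapped RRAGC (37.2 ± 2.0 TPM), SESN2 (22.2 ± 1.45 TPM) lay above FLCN (15.2 ± 0.549 TPM) in every sample, and SESN1 (4.69 ± 0.154 TPM) lay above DEPDC5 (3.62 ± 0.312 TPM) in every sample (SD, n = 3 each).

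**Figure D4:**
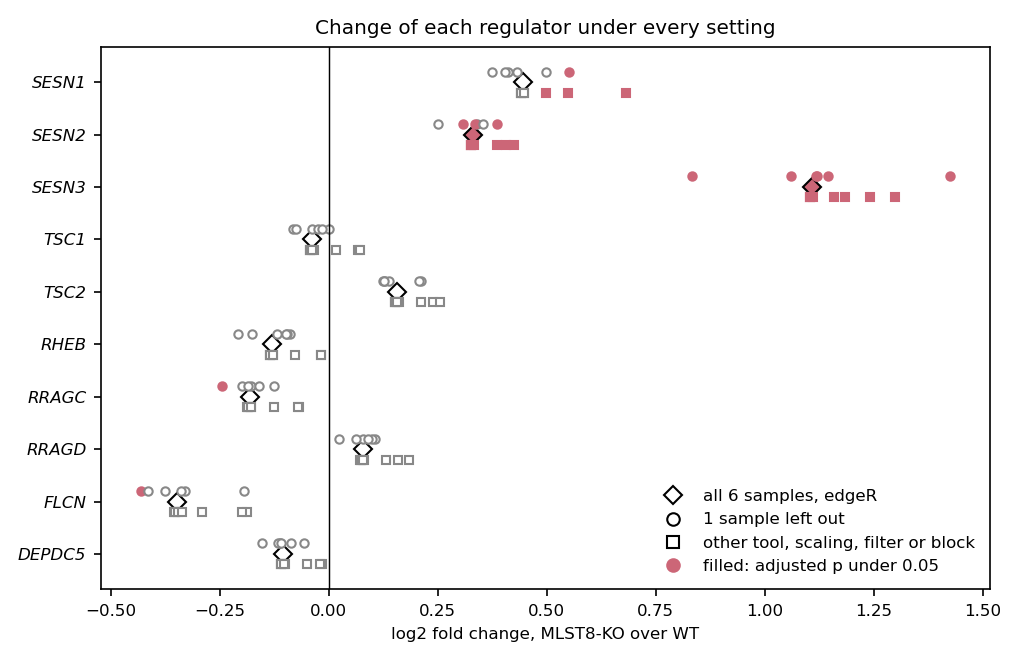
Log2 fold change of each regulator (horizontal axis, MLST8-KO over WT) with all samples in edgeR (diamonds), with 1 sample left out (circles) and with another tool, scaling, filter or the replicate block (squares), filled where the adjusted p was under 0.05. SESN3 is filled in every setting, from 0.83 to 1.42, and TSC1 is the only regulator with values on both sides of 0.

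The other genes of this signaling arm were taken from a list of 47 genes in 9 modules, of which 46 were tested. DDIT4L, a relative of the stress gene DDIT4, had 1 or 2 counts per sample and was not. Of the 46 genes, 11 were lower (23.9%, against 15.7% of all genes) and 3 were higher (6.52%, against 16.3% of all genes) by edgeR. The median log2 fold change was -0.07. In CPM, every MLST8-KO sample was below every WT sample for 17 genes and above for 5. Over all genes tested these shares were 24.2% below and 24.8% above, or 49.1% in all. The total of 22 of 46 was therefore near the background, but its split of 17 below and 5 above was less even than that of all genes. Calls in this list depended on the setting, and limma changed the tool, the unit and the scaling at once. With upper quartile scaling 5 genes were higher and 10 lower, and with limma on log2(TPM + 1) 5 were higher and 7 lower. Among all genes the share of calls that were higher rose from 51.0% to 62.0% and 71.0% under the same changes, and the median log2 fold change of all genes moved to 0.06 and 0.09.

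Among the Rag partners and the Ragulator, the scaffold that anchors Rag GTPases to the lysosome, 3 of 7 genes were lower and 0 higher by edgeR, where 15.7% of all genes were lower and 16.3% higher. RRAGA, which encodes RagA, was at 76.7, 84.4 and 98.3 TPM in the WT samples and at 68.2, 60.4 and 64.8 TPM in the MLST8-KO samples, without overlap (log2 fold change -0.53, standard error 0.11, adjusted p = 0.00840 by edgeR). The Ragulator subunits LAMTOR5 (-0.64, standard error 0.14, adjusted p = 0.00903 by edgeR) and LAMTOR3 (-0.73, standard error 0.19, adjusted p = 0.0180 by edgeR) were lower too. LAMTOR3 was at 14.7, 18.4 and 26.6 TPM in the WT samples and at 14.2, 13.4 and 11.4 TPM in the MLST8-KO samples, and its log2 fold change was -0.44 without WT replicate 3, the highest sample (adjusted p = 0.0153, edgeR). Both have processed pseudogenes, so their levels are uncertain. LAMTOR4 had a log2 fold change of 0.24, LAMTOR1 of 0.07 and LAMTOR2 of -0.35, and none of these passed the threshold. At an unadjusted p under 0.05, LAMTOR4 was the only gene of this module on the higher side by edgeR, and DESeq2 called 0 and limma 1 of the module higher. Of the folliculin partners, FNIP1 was lower, at 16.3, 20.7 and 21.4 TPM in the WT samples and 13.8, 15.7 and 12.6 TPM in the MLST8-KO samples (log2 fold change -0.59, standard error 0.12, adjusted p = 0.00666 by edgeR). FNIP2 had a log2 fold change of 0.23 and did not pass. TBC1D7, the third TSC subunit, was lower (-0.32, standard error 0.08, adjusted p = 0.0146 by edgeR), although neither TSC1 nor TSC2 passed.

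In GATOR1, the DEPDC5 partner NPRL2 was lower (log2 fold change -0.85, standard error 0.27, adjusted p = 0.0365 by edgeR) and NPRL3 did not pass (-0.15). NPRL2 was at 18.1, 19.8 and 41.1 TPM in the WT samples and at 17.0, 13.6 and 16.2 TPM in the MLST8-KO samples. WT replicate 3 thus held more than the other WT samples together, and without it the log2 fold change was -0.39 (adjusted p = 0.0627, edgeR). In GATOR2, WDR24 had a similar pattern, at 7.57, 7.45 and 13.04 TPM in the WT samples and 6.14, 6.73 and 5.40 TPM in the MLST8-KO samples. Its log2 fold change was -0.73 with all samples (adjusted p = 0.0286, edgeR) and -0.40 without WT replicate 3 (adjusted p = 0.0549, edgeR). SEC13, a GATOR2 subunit that also serves in vesicle coats and nuclear pores, was lower (-0.72, standard error 0.14, adjusted p = 0.00591 by edgeR), with a pseudogene that makes its level uncertain. WDR59 had a log2 fold change of 0.24 with an adjusted p of 0.0544 by edgeR. None of the 4 genes of KICSTOR, which anchors GATOR1 at the lysosome, passed (0 by edgeR, DESeq2 or limma, and 0 at an unadjusted p under 0.05 by edgeR).

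Among amino acid sensors, SLC38A9, the lysosomal arginine sensor, was higher and SAR1B, a leucine-binding GTPase of vesicle transport, was lower. SLC38A9 was at 18.4, 17.8 and 15.2 TPM in the WT samples and at 24.1, 22.2 and 22.0 TPM in the MLST8-KO samples (log2 fold change 0.31, standard error 0.10, adjusted p = 0.0366 by edgeR). SAR1B was at 25.9, 31.1 and 33.4 TPM in the WT samples and at 19.3, 19.9 and 17.5 TPM in the MLST8-KO samples (-0.78, standard error 0.11, adjusted p = 0.00281 by edgeR). Its exons share 385 bases with SEC24A, so reads there cannot be told apart. The arginine sensor CASTOR1 (-0.56) and its relative CASTOR2 (0.25) did not pass.

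Of the energy and stress inputs, DDIT4, which encodes the stress-induced TSC activator REDD1, was higher. It was at 33.4, 26.2 and 26.6 TPM in the WT samples and at 50.8, 39.1 and 49.4 TPM in the MLST8-KO samples (log2 fold change 0.59, standard error 0.14, adjusted p = 0.0111 by edgeR). The AMPK subunits PRKAG1 (-0.45, adjusted p = 0.00920 by edgeR) and PRKAB1 (-0.29, adjusted p = 0.0416 by edgeR) were lower, and the catalytic subunits PRKAA1 (0.07) and PRKAA2 (0.15) did not pass.

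Among 10 transcription factors that act on sestrin, Rag or FLCN genes in other settings, 1 passed by edgeR, a share below the 32.0% of all genes tested. FOXO1, which can induce SESN3, was at 3.72, 2.88 and 1.79 TPM in the WT samples and at 4.84, 5.72 and 3.87 TPM in the MLST8-KO samples (log2 fold change 0.67, standard error 0.22, adjusted p = 0.0441 by edgeR). Without WT replicate 3, its lowest sample, the log2 fold change of FOXO1 was 0.44 (adjusted p = 0.0759, edgeR). A link between FOXO1 and SESN3 in these samples was not tested. The log2 fold change of FOXO3 was 0.0055, of ATF4 -0.23 and of TFEB -0.07, and none of these passed. No factor was lower by edgeR, DESeq2 or limma (0), with 2 (ATF4 among them) at an unadjusted p under 0.05 by edgeR.

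**Figure D5:**
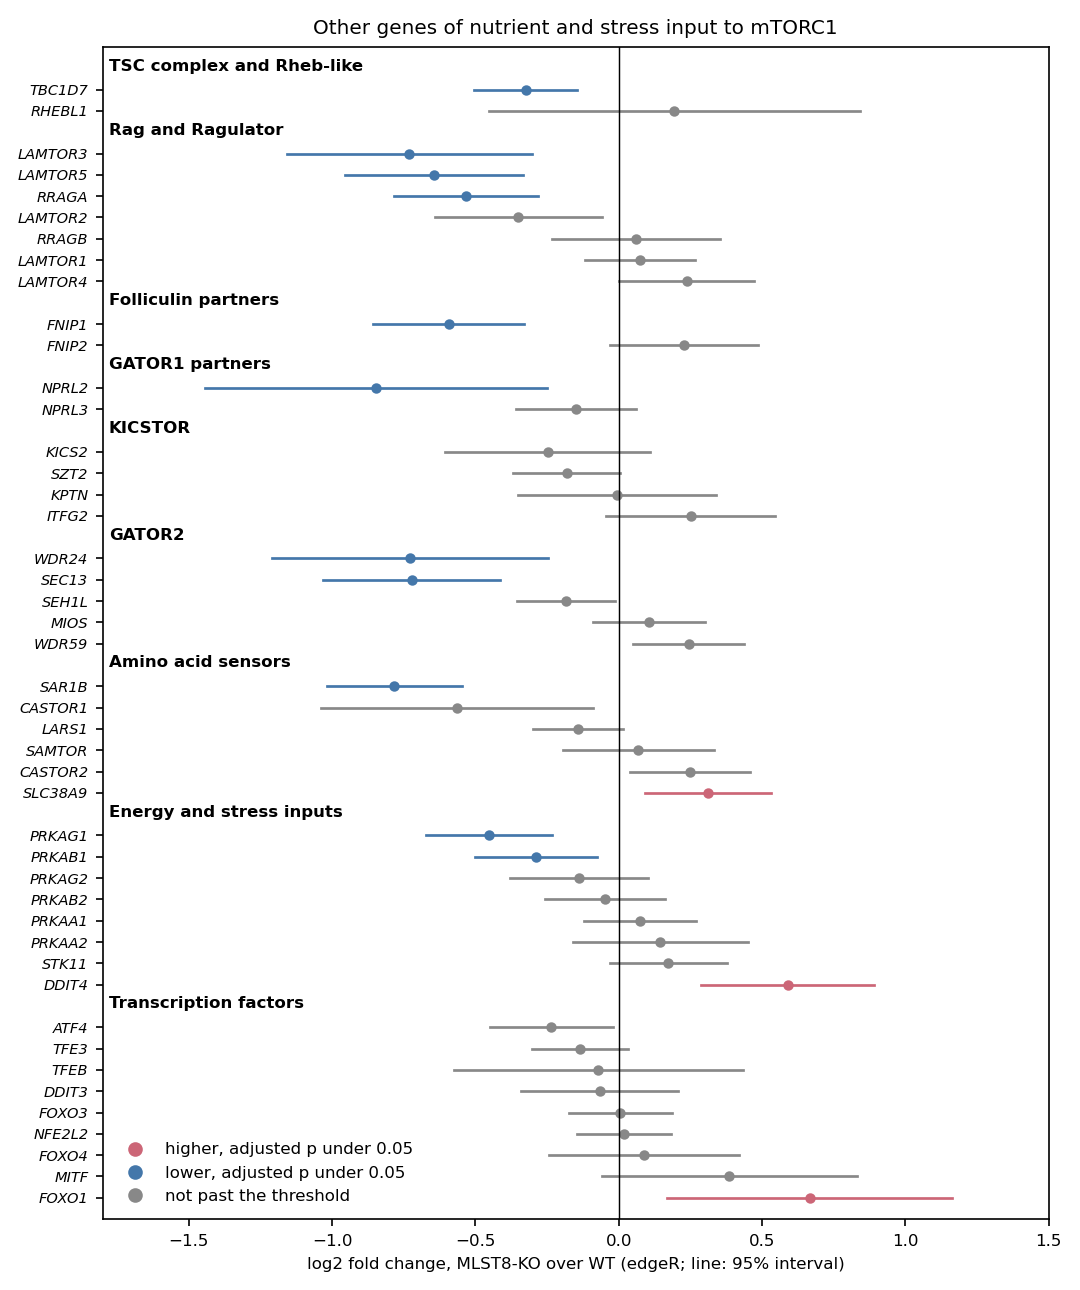
Log2 fold change (horizontal axis, MLST8-KO over WT) of the other tested genes of nutrient and stress input, by module, without 1 transcription factor that did not pass; points are edgeR estimates and lines their 95% intervals. The 11 lower genes are spread over 7 of the 9 modules, from NPRL2 at -0.85 to PRKAB1 at -0.29, and the 3 higher genes are SLC38A9, DDIT4 and FOXO1 (KICS2, SAMTOR and LARS1 are listed under older symbols).

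Several of these calls changed with the tool, the scaling or when 1 sample was left out. RRAGA, LAMTOR5, FNIP1, SEC13, SAR1B and PRKAG1 passed the threshold in all 14 alternative fits. NPRL2 and WDR24, lost without WT replicate 3, were also lost without any 1 of the MLST8-KO replicates. FOXO1 passed in 1 of the 6 fits with 1 sample left out (without WT replicate 1), as did SLC38A9, and PRKAB1 passed in 1 of the 6 as well (without MLST8-KO replicate 3). DDIT4 was lost without WT replicate 2 or MLST8-KO replicate 1, TBC1D7 without WT replicate 2 or MLST8-KO replicate 1, and LAMTOR3 without MLST8-KO replicate 2 or 3. With limma on log2(TPM + 1), TBC1D7 (log2 fold change -0.20, adjusted p = 0.0762), NPRL2 (adjusted p = 0.0805), WDR24 (adjusted p = 0.0679) and PRKAB1 (-0.18, adjusted p = 0.145) did not pass. PRKAB1 was also lost with upper quartile scaling (adjusted p = 0.0776, edgeR), and SLC38A9 with DESeq2 (adjusted p = 0.0670).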

How the data were processed

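RNA from 3 WT and 3 MLST8-KO HCC2814 samples was sequenced by BGI after poly(A) selection, and the labels and the paper name different extraction kits. Per the submitters' processing notes, HISAT and Bowtie2 were run after read filtering, with GRCh38.p12 as the build. The authors deposited estimated counts (not normalized), TPM and FPKM (scaled by gene length and depth) per sample. How counts were made, and with what strand setting, is not given in the sources used here. A second deposited table holds the authors' own fold changes, p-values and q-values and was not used.

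Estimated counts (12.4% not whole) were rounded and tested with edgeR 4.0.16 in R 4.3.3 (TMM, filterByExpr, glmQLFTest, no pairing), with Benjamini-Hochberg adjustment over 12951 of 17448 genes and a threshold of 0.05. Standard errors are the absolute log2 fold change over the square root of F. The result was recomputed with DESeq2 1.42.0, with limma 3.58.1 on log2(TPM + 1) or log2(TPM + 0.1), with other scalings and filters, the replicate number as a block, and fits without 1 sample. FPKM was an alternative to TPM for family shares, which it gives nearly unaltered by construction. Symbols turned into dates (25) were restored by Entrez identifier. In simulated counts for these 12951 genes, with 200 changed by a log2 fold change of 1, edgeR recovered 89.0%, and 7.77% of its calls were unchanged genes. In the real data 32.0% of genes were called, and the named changes other than that of SESN3 were smaller than 1. These simulated shares therefore do not carry over to them. No pair of replicates agreed within sampling noise. Their chi-square was 26.5 per gene between WT replicates 1 and 3, and 6.98 to 10.2 for the other pairs. The series' design text describes the replicates as biological and from independent experiments, without saying that numbers match between groups. A count of 0 allows 3 counts, or 0.209 CPM in the shallowest library (counting error only).

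The regulators and lists were chosen with earlier results of these data known. Named were the 10 regulators, MLST8 and, per module, up to 3 genes past the threshold in each direction; other genes were named after their values were seen. The values of 1 gene of the transcription factor list, which its counts and medians include, are not reported here.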

Additional observations from a re-analysis of the deposited data

How the results depend on the processing

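SESN3 and MLST8 kept their direction and stayed past the threshold in all 14 alternatives, and SESN2 in 11. The log2 fold change of TSC1 turned to 0.017 with upper quartile scaling and to 0.066 and 0.072 with limma on log2(TPM + 1) and log2(TPM + 0.1); the cause was not tested, but these settings also moved the median of all genes upward. With limma on log2(TPM + 1) the list of other pathway genes had 5 higher and 7 lower genes, as with log2(TPM + 0.1), and with upper quartile scaling 5 were higher. Limma gave 1134 and 1132 lower genes among all genes at the pseudocounts of 1 and 0.1, against 2030 with edgeR, and 2782 and 2764 higher against 2116. With 1 sample left out, the regulators had 1 to 3 higher and 0 to 2 lower genes. They had 1 higher without WT replicate 2, MLST8-KO replicate 1 or MLST8-KO replicate 3, and 2 lower, RRAGC and FLCN, without WT replicate 1. The other pathway genes had 0 to 4 higher and 7 to 13 lower. Of these, 0 were higher without WT replicate 2 or MLST8-KO replicate 1, and 1 was higher without MLST8-KO replicate 2 or 3. All genes gave 971 to 2692 higher and 850 to 2651 lower calls, and fewer samples were fitted in each. Without WT replicate 3 the mean WT share of SESN2 was 44.3% and that of SESN3 47.5%. Same-numbered samples deviated together only weakly (correlations 0.0925, 0.0994 and 0.177 over 11188 genes, not all above 0.1), although each correlated best with its own number, a hint from the data. The design text ties no number of one group to the same number of the other, so the samples were not treated as paired. With the replicate block, 2 regulators were higher and 0 lower, the other pathway genes had 3 higher and 12 lower, and all genes 2261 and 2157. SESN3 had a log2 fold change of 1.18 with the block. SESN1 and DEPDC5 had the fewest counts of the regulators, 61 to 156 per sample, and what this depth could detect was not tested.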
